A study of Canis lupus familiaris with 7 samples.

Results

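The genes described here were 44 cell cycle genes, listed by symbol as 16 S-phase genes, 23 mitotic genes and 5 genes of G1/S control and origin licensing. A gene was found when a non-control probe of the array carried its symbol as the gene name. That gave 34 of the 44 genes, with 52 probes, among 11161 genes named by symbol on the array, and all 34 genes were well above background on all 7 arrays. The list was not chosen by measured values of a single comparison, but earlier results of these data were known when it was drawn up.

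Gene expression was measured in primary canine osteosarcoma, a bone-forming tumour, with a 1-colour Agilent array for each of 7 dogs. The question was how tumours with and without a deletion of DLG2, a gene for a membrane-associated scaffold protein, differ in expression. The DLG2 deleted group held 4 tumours, from dogs aged 8, 9, 6 and 7 years with the sex labels MC, FS, MC and FS. The DLG2 wild type group held 3 tumours, from dogs aged 12, 10 and 8 years with the labels FS, FS and MC. No treatment is named in the labels, all dogs were of different breeds or crosses, and the labels do not say how many copies of DLG2 a deleted tumour had lost. Each tumour was a separate dog with 1 array, so the spread within a group includes breed, age, sex and tumour content. In bulk tumour RNA, fewer dividing cells and less cell cycle RNA per cell cannot be told apart.

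Dividing cells copy their DNA in S phase and separate it in mitosis, and each step has its own genes. Before S phase, the origin recognition complex, CDC6 and CDT1 load the MCM helicase onto DNA. E2F factors and cyclin E then drive the start of replication, and PCNA clamps the polymerases to the template. Mitotic genes peak later, under FOXM1 and related factors, and code for the kinases, kinesins and centromere proteins that build the spindle and divide the cell. Both groups of genes are routinely used as markers of proliferation in tumours.

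The array reads each gene through probes of 60 bases, and 8 of these are shown because the results below turn on them or on how probes of a gene differ. MCM5 was among the genes whose groups did not overlap, the MCM6 and PCNA probes are the second probes of such genes, with smaller differences than the first, RRM1 and KIF20A had differences of the opposite sign, and PLK1 had the smallest p of the mitotic list. The MCM3 pair is shown because its sequences share 31 and 13 bases on either side of 6 bases that only probe a holds, set in capitals. Sequences are 5′ to 3′ as deposited, with no capitals in the other probes.
MCM5: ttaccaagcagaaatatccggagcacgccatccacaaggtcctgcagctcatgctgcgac
MCM6: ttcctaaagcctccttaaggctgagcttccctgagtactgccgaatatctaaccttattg
PCNA: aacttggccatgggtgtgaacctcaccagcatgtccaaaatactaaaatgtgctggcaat
RRM1: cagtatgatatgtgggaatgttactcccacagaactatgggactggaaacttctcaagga
KIF20A: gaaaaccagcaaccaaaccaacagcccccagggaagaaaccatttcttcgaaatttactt
PLK1: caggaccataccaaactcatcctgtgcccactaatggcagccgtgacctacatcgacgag
MCM3 probe a: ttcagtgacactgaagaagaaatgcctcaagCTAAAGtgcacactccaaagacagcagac
MCM3 probe b: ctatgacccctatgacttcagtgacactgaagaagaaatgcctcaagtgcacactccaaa

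In the canFam2 build of the deposited files, these probes lie at chr10:31792789-31793773 for MCM5, chr19:41652433-41652492 for MCM6, chr24:19476715-19477834 for PCNA and chr21:29629667-29629725 for RRM1. KIF20A lies at chr11:28850674-28850733, PLK1 at chr6:25189452-25189765, and the MCM3 probes at chr12:22927857-22928337 and chr12:22927867-22928353. MCM6 and the MCM3, MCM5 and PLK1 probes are on the minus strand and the others on the plus strand. The MCM5 probe covers 985 genomic bases with 60 bases of sequence, the PCNA probe 1120, the PLK1 probe 314 and the MCM3 probes 481 and 487, so each of them joins separate stretches of the genome as spliced RNA does. Of the 51 mapped probes of the 34 genes, 11 cover more than 60 genomic bases. Whether the remaining probes lie in coding sequence or in an untranslated part was not analysed here.

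Between 30280 and 34538 probes were well above background on an array, and 0 spots were saturated. Wild-type tumours 1 and 2 were much alike, with a Pearson r of 0.987 over probes against 0.936 to 0.966 in the other pairs, and results are therefore also given with this pair counted as 1 tumour. The probe for DLG2 itself had log2 intensities of 10.38, 11.44, 10.51 and 10.84 in the deleted tumours and 10.91, 12.03 and 11.75 in the wild-type tumours. Deleted tumour 2 thus overlapped with wild-type tumour 1, with a difference of -0.77 (SE 0.35, limma adjusted p = 0.711). The study names an interval for the recurrent deletion in dogs without a build, and if that build is the one of the probe coordinates, the probe lies outside the interval and is no check of the labels. How far the deletion reached in each tumour is not given in the sources used here. Of 11 osteoblast markers, 6 had a probe, and RUNX2, ALPL, BGLAP, COL1A1 and COL1A2 were well above background in all 7 tumours. The arrays of deleted tumours 2 and 3 were on the same slide as that of wild-type tumour 2, and the remaining arrays had a slide each.

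Cell cycle genes lay lower in the deleted tumours in 31 of 34 cases, on the log2 intensity scale and by the mean of the groups. Over all 32309 probes kept, 48.9% lay below 0, and of the 9575 genes with a symbol and a kept probe, 47.1% did. Such shares do not allow for genes that vary together. In deleted tumour 1, 0 of 15 S-phase and 0 of 15 mitotic genes lay above their own mean over the tumours. In wild-type tumour 2, 15 and 14 did. Gene counts set against a share of all probes, here and below, are thus not counts of independent results. The median difference over the 34 genes was -0.42, against 0.01 over all probes, where a difference is deleted minus wild type. Quantile normalization largely fixes the value over all probes near 0. None of these differences passed the threshold of an unadjusted p below 0.05 together with an adjusted p below 0.1 in limma's moderated test. The number called was 0 of 34 genes and 0 of 32309 probes (0.0%), and the smallest adjusted p was 0.5 among the genes and 0.117 among all probes.

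At an unadjusted p below 0.05 alone, 5 of the 34 genes lay lower and 0 higher, against 4.17% and 3.12% of all probes. These 5 were MCM6, MCM5, PCNA, MCM2 and ORC1. The count rests on the brightest probe of each gene. Of the 5, only MCM6 and PCNA had a second probe, with limma unadjusted p of 0.092 and 0.314, and the PCNA groups overlapped on it. In 4 of the 34 genes every deleted tumour lay below every wild-type tumour, against 4.22% of all probes, and in 0 genes every deleted tumour lay above, against 3.92%. These 4 were PCNA, MCM5, MCM6 and ORC1, all acting at origins and replication forks. For each of them exact permutation over all 35 ways to split the tumours gave p = 0.0571, the smallest it can give. Any gene with separate groups gets this p, so it restates the separation and adds no further result.

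These counts depended on single tumours. Genes at an unadjusted p below 0.05 in the lower direction numbered 11 without deleted tumour 4 and 11 without wild-type tumour 3, but 3 without wild-type tumour 1 or 2 or with that pair as 1 tumour. In these last 3 settings the genes were MCM5, MCM6 and PCNA each time, each read from its brightest probe. The background share of all probes was 4.93%, 4.92%, 2.79%, 2.87% and 2.68% in that order. Array weights gave 15 such genes, against 6.57% of probes. These weights were highest for wild-type tumours 1 and 2, the pair much alike, at 2.45 and 2.1, against 0.534 to 1.16 in the others. The extraction session as a term gave 11, against 4.35%. Session here is a split by the clock hour at which the scanner program processed the image, not RNA extraction. Deleted tumours 2, 3 and 4 shared a session with wild-type tumour 2, and deleted tumour 1 with wild-type tumours 1 and 3. Session and DLG2 status can thus be told apart only in part. With age in the model 2 genes were left, MCM6 and RFC4, against 3.43% of probes. With the sex label in the model there were 10, against 4.4%. Genes with separate groups, lower in the deleted tumours, numbered 15 without wild-type tumour 3, 11 without deleted tumour 4, 7 without deleted tumour 2 and 4 without any other single tumour, against 9.68%, 7.79%, 7.75% and 6.3% to 7.43% of all probes. In the higher direction RRM1 was the only gene at an unadjusted p below 0.05 under any setting, and only without deleted tumour 1.

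**Figure D1:**
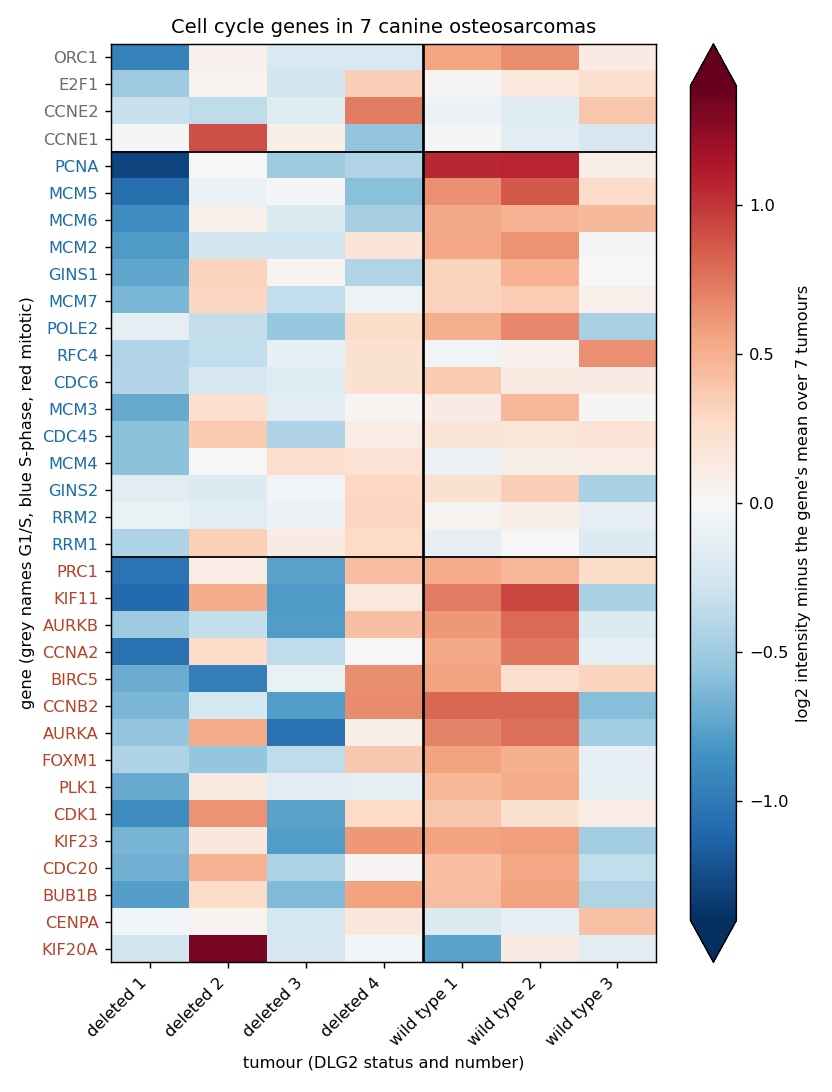
Each cell shows the log2 intensity of 1 of the 34 genes (rows, by list) in 1 of the 7 tumours (columns), minus the mean of that gene over the 7 tumours, from blue (below the mean) to red (above it). Deleted tumour 1 was below the mean in all 30 S-phase and mitotic genes, and wild-type tumours 1 and 2 were above it in most.

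The S-phase list had 15 of its 16 genes on the array under their symbols, and 14 of the 15 lay lower in the deleted tumours. The median difference was -0.39, with a range of -1.29 to 0.17. The groups were separate in 3 of 15 genes and the unadjusted p was below 0.05 in 4 of 15, all in the lower direction, against 4.22% and 4.17% of all probes.

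The replicative helicase unwinds DNA at the fork and consists of the MCM2 to MCM7 ring, CDC45 and the GINS proteins. All 9 measured helicase genes lay lower in the deleted tumours, with a median of -0.44. MCM6 had log2 intensities of 11.00, 11.94, 11.67 and 11.41 in deleted tumours 1 to 4, while wild-type tumours 1 to 3 read 12.40, 12.36 and 12.33. The wild-type values were close together and all deleted tumours lay below them, with a difference of -0.86 (SE 0.22, limma adjusted p = 0.5). The second MCM6 probe, whose sequence is given above, differed by -0.60 (SE 0.31), with 9.43, 10.75, 10.50 and 10.40 in the deleted and 10.89, 10.96 and 10.75 in the wild-type tumours, so its groups were barely separate, with the highest deleted and the lowest wild-type value both at 10.75 after rounding.

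MCM5 had 9.04, 10.00, 10.06 and 9.50 in the deleted tumours and 10.72, 10.95 and 10.34 in the wild-type tumours. The groups were separate, with deleted tumour 1 lowest, and the difference was -1.02 (SE 0.28, limma adjusted p = 0.536). MCM2 had 7.70, 8.23, 8.21 and 8.66 against 9.03, 9.11 and 8.48. Here deleted tumour 4 lay above wild-type tumour 3 and the groups overlapped, with a difference of -0.67 (SE 0.26, limma adjusted p = 0.659). Of the other helicase genes, GINS1 differed by -0.46, MCM7 by -0.44, MCM3 by -0.34 and CDC45 by -0.31, while MCM4 (-0.07) and GINS2 (-0.06) lay close to 0. Both MCM7 probes share 56 of their 60 bases and gave -0.44 and -0.49, so they are no separate evidence. The MCM3 probes shown above gave -0.18 for probe a and -0.34 for probe b, another MCM3 probe gave -0.13, and all 3 were lowest in deleted tumour 1.

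PCNA, the sliding clamp of the replication fork, showed the largest difference of the list. Its log2 intensities were 9.90, 11.18, 10.69 and 10.78 in the deleted tumours and 12.25, 12.26 and 11.28 in the wild-type tumours. Every deleted tumour lay below every wild-type tumour, although deleted tumour 2 came close to wild-type tumour 3, and the difference was -1.29 (SE 0.36, limma adjusted p = 0.542). A second probe of PCNA read 7.98, 9.35, 8.72 and 8.96 against 9.41, 9.75 and 8.44. On that probe wild-type tumour 3 lay below deleted tumours 2, 3 and 4, and the difference was -0.45 (SE 0.41, limma unadjusted p = 0.314). POLE2, a subunit of the leading-strand polymerase, differed by -0.42, and RFC4, part of the complex that loads the clamp, by -0.39, both with overlapping groups.

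Ribonucleotide reductase makes the deoxynucleotides that replication uses, and both of its genes had overlapping groups. RRM1, the large subunit, read 7.28, 8.05, 7.84 and 8.00 in the deleted tumours and 7.61, 7.72 and 7.53 in the wild-type tumours. Deleted tumour 1 was lowest of all and the other deleted tumours were highest of all, and the difference was 0.17 (SE 0.20, limma adjusted p = 0.913). RRM2, the small subunit, differed by -0.01 (SE 0.14). CDC6, which loads the helicase at origins, differed by -0.36 (SE 0.16, limma adjusted p = 0.713), with deleted tumour 4 inside the wild-type range.

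Of the 5 genes of G1/S control and licensing, 4 were measured under their symbols, with a median difference of -0.15. ORC1, the subunit of the origin recognition complex whose amount varies with the cell cycle, had 7.94, 8.95, 8.67 and 8.68 in the deleted tumours and 9.44, 9.54 and 9.01 in the wild-type tumours. Its groups were separate, with deleted tumour 2 nearest to wild-type tumour 3, and the difference was -0.77 (SE 0.26, limma adjusted p = 0.614). E2F1, an activator of S-phase genes, had 6.89, 7.44, 7.14 and 7.74 against 7.41, 7.54 and 7.62. Deleted tumour 4 was the highest of all 7 and the groups overlapped, with a difference of -0.22 (SE 0.21, limma adjusted p = 0.897). CCNE1, cyclin E1, had 8.73, 9.66, 8.83 and 8.20 against 8.73, 8.60 and 8.53. Deleted tumour 2 was highest and deleted tumour 4 lowest, so the deleted group spanned the wild-type group, with a difference of 0.23 (SE 0.32, limma adjusted p = 0.927). Without deleted tumour 2 the CCNE1 difference was -0.03. CCNE2, cyclin E2, differed by -0.07 (SE 0.30).

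**Figure D2:**
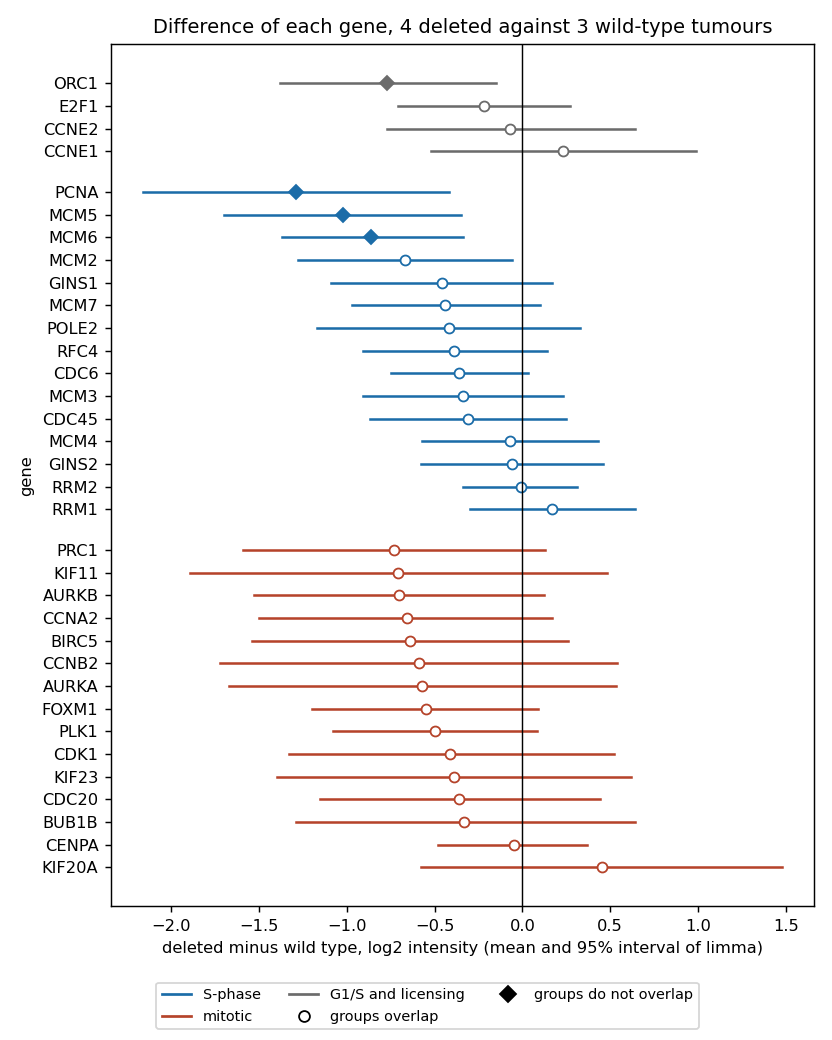
Points give the deleted minus wild-type difference in log2 intensity of each gene and lines its 95% confidence interval from limma (4 deleted and 3 wild-type tumours), with filled diamonds where the groups do not overlap. The intervals of PCNA, MCM5, MCM6, MCM2 and ORC1 lie below 0, before adjustment over all probes, and those of all 15 mitotic genes include 0.

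The mitotic list had 15 of its 23 genes on the array under their symbols. Of these, 14 lay lower in the deleted tumours, with a median difference of -0.55 and a range of -0.73 to 0.45. The groups overlapped in all 15 genes, and 0 of 15 had an unadjusted p below 0.05, against 7.29% of all probes in either direction. In the main setting the median lay further from 0 than in S-phase genes, while the SE of a gene's difference ran from 0.18 to 0.50, against 0.14 to 0.36 in S-phase genes. This order of the medians depended on the processing. With the processed signal of the scanner program, the S-phase and mitotic medians were -0.61 and -0.60 with 75th percentile scaling. They were -0.59 and -0.59 with quantile scaling.

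Genes of mitotic entry lay lower in 6 of 6 cases, with a median of -0.56. PLK1, a kinase of mitotic entry and spindle assembly, had the smallest p of the list and read 8.37, 9.20, 8.93 and 8.94 in the deleted tumours and 9.54, 9.59 and 8.95 in the wild-type tumours. Wild-type tumour 3 lay among the deleted tumours, and the difference was -0.50 (SE 0.24, limma adjusted p = 0.734). FOXM1, the transcription factor of many mitotic genes, had 8.87, 8.75, 8.94 and 9.67 against 9.86, 9.80 and 9.18. Only deleted tumour 4 entered the wild-type range, and the difference was -0.55 (SE 0.27, limma adjusted p = 0.741). CDK1, the kinase that starts mitosis, had 9.48, 10.98, 9.60 and 10.63 against 10.73, 10.56 and 10.45. Deleted tumours 1 and 3 were far below the rest, deleted tumour 2 was the highest of all, and the difference was -0.41 (SE 0.39, limma adjusted p = 0.901). For the cyclins CCNA2 and CCNB2 the differences were -0.66 and -0.59, and for the kinase AURKA -0.57. Further probes gave smaller differences, at -0.41 and -0.41 for CCNB2 and -0.15 for AURKA.

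Among the genes of the centromere, the chromosomal passenger complex and the spindle checkpoint, 5 of 5 lay lower, with a median of -0.36. AURKB, the kinase of the passenger complex, had 10.03, 10.20, 9.75 and 10.96 in the deleted tumours and 11.15, 11.33 and 10.34 in the wild-type tumours. Deleted tumour 4 lay above wild-type tumour 3, and the difference was -0.70 (SE 0.35, limma adjusted p = 0.743). A second AURKB probe gave -0.31 (SE 0.27). BIRC5, the survivin subunit of the same complex, differed by -0.64 on one probe and by 0.08 (SE 0.15) on its other probe, so its direction depended on the probe. CDC20 and BUB1B, which act in the checkpoint, differed by -0.36 and -0.33. CENPA, the centromeric histone, differed by -0.05, and by -0.17 on a second probe.

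Genes of the spindle and of cytokinesis lay lower in 3 of 4 cases. PRC1, which bundles microtubules at the midzone, had 9.47, 10.60, 9.74 and 10.93 in the deleted tumours and 11.02, 10.97 and 10.75 in the wild-type tumours. Deleted tumour 4 lay inside the wild-type range and deleted tumours 1 and 3 more than 1 below it, with a difference of -0.73 (SE 0.36, limma adjusted p = 0.745). A second PRC1 probe gave -0.29 (SE 0.23). KIF11, the kinesin that pushes the spindle poles apart, had 9.35, 10.95, 9.65 and 10.58 against 11.16, 11.37 and 9.98. Wild-type tumour 3 lay below deleted tumours 2 and 4, and the difference was -0.71 (SE 0.50, limma adjusted p = 0.847). KIF23, of the central spindle, differed by -0.39.

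KIF20A, a kinesin of cytokinesis, was the exception in sign. It read 8.46, 10.06, 8.50 and 8.70 in the deleted tumours and 7.99, 8.85 and 8.59 in the wild-type tumours. Deleted tumour 2 stood above all others and wild-type tumour 1 was lowest, and the difference was 0.45 (SE 0.43, limma adjusted p = 0.901). All 3 KIF20A probes were highest in deleted tumour 2, and without that tumour the difference was 0.08.

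The remaining 10 genes had no probe under their symbol, and for 9 of them a description in the files pointed to 15 probes. This second route was added after the values were seen. By it 8 genes had a kept probe, all 8 lay lower in the deleted tumours and their median difference was -0.47. MKI67, the Ki-67 proliferation antigen, had 9.09, 10.07, 9.03 and 9.79 in the deleted tumours and 10.92, 10.95 and 9.23 in the wild-type tumours. Wild-type tumour 3 lay among the deleted tumours, with a difference of -0.87 (SE 0.49, limma adjusted p = 0.777), and a second MKI67 probe gave -0.36 (SE 0.21).

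TOP2A, the topoisomerase that untangles chromosomes, had 7.71, 8.17, 7.60 and 8.24 against 8.58, 8.48 and 8.12. Wild-type tumour 3 lay below deleted tumours 2 and 4, with a difference of -0.46 (SE 0.21, limma adjusted p = 0.701). BUB1, a checkpoint kinase, was the only one of the 8 with separate groups, at 10.58, 11.20, 10.29 and 10.95 against 11.39, 11.59 and 11.50. Its difference was -0.74 (SE 0.22, limma adjusted p = 0.565). The probe described as CCNB1 was not well above background on any array and gives no value here. TYMS, which makes thymidylate, differed by -0.70 (SE 0.37), but its described probes lie on chromosomes 7 and 19 or are unmapped, and which of them reads TYMS itself is uncertain. No probe was found for NUSAP1.

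S-phase and mitotic genes were then compared within each tumour. For this, each gene was expressed as its deviation from its own mean over the 7 tumours, and the median over the genes of a list was taken, so that no probe was set against another. The S-phase median was -0.58, -0.01, -0.15 and 0.17 in deleted tumours 1 to 4, against 0.31, 0.35 and 0.07 in wild-type tumours 1 to 3. Deleted tumour 4 exceeded wild-type tumour 3, so the groups overlapped, with means of -0.14 (SD 0.32, n = 4) and 0.24 (SD 0.15, n = 3). The mitotic median was -0.67, 0.16, -0.62 and 0.28 in the deleted tumours and 0.53, 0.54 and -0.15 in the wild-type tumours. Deleted tumours 2 and 4 both exceeded wild-type tumour 3, with means of -0.21 (SD 0.50, n = 4) and 0.31 (SD 0.39, n = 3). Over all 9552 genes with a value on every array, the same median lay between -0.02 and 0.01 in every tumour. Quantile normalization gives all arrays the same distribution, which largely fixes that median near 0. It is therefore no measure of how particular the medians of the lists are. With normexp and the 75th percentile instead, the median difference over all probes was 0.32.

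**Figure D3:**
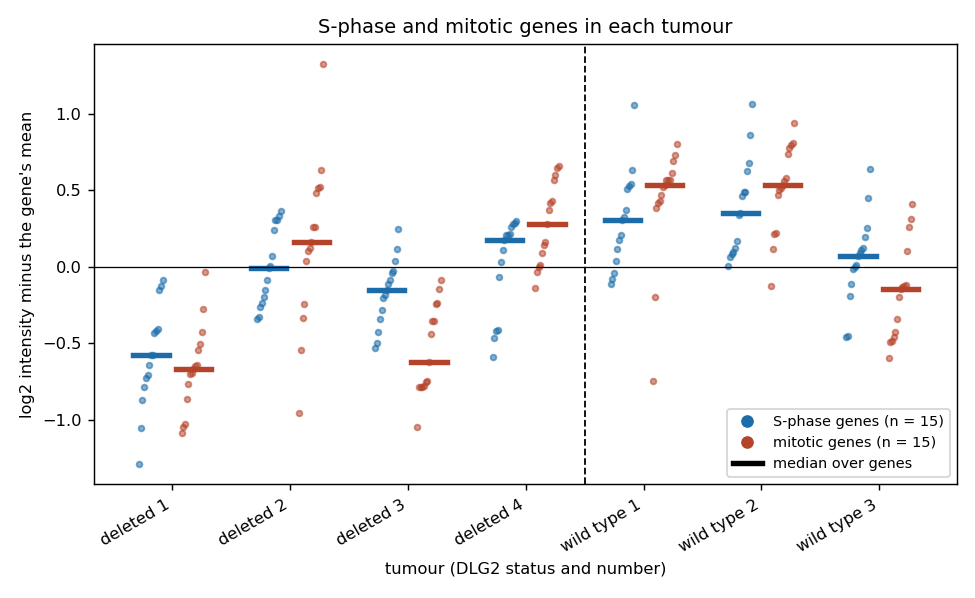
Small points show the deviation of each S-phase gene (blue, n = 15) and each mitotic gene (red, n = 15) from its own mean over the tumours, in log2 intensity, for each of the 7 tumours, and bars the median over genes. Deleted tumour 3 had mitotic genes well below S-phase genes (-0.62 and -0.15), while both lists were low in deleted tumour 1.

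Deleted tumour 1 was the lowest of the 7 in 12 of 15 S-phase genes and in 7 of 15 mitotic genes. Deleted tumour 3 was the lowest in 5 of 15 mitotic genes but in 1 of 15 S-phase genes. Both tumours had 0 of 15 mitotic genes above the genes' means, whereas deleted tumour 3 had 3 of 15 S-phase genes above. Deleted tumours 2 and 4 had 11 and 13 of 15 mitotic genes above the mean, within the range of the wild-type tumours, which had 13, 14 and 4.

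The S-phase median minus the mitotic median was 0.09, -0.17, 0.47 and -0.11 in the deleted tumours and -0.23, -0.18 and 0.22 in the wild-type tumours. The groups overlapped, with means of 0.07 (SD 0.29, n = 4) and -0.06 (SD 0.25, n = 3). Their difference was 0.14, and each SD is the spread of single tumours, not the error of that difference. An unequal difference of replication and mitosis genes by DLG2 status was not tested. Taken from the differences of the genes, the S-phase median minus the mitotic median was 0.17, and it was -0.02 with the processed signal of the scanner program scaled to its 75th percentile. With age in the model it was -0.26, since the mitotic median then moved from -0.55 to -0.02 and the S-phase median from -0.39 to -0.28. The oldest dogs were wild-type tumours 1 and 2, so age and DLG2 status can be told apart only in part.

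**Figure D4:**
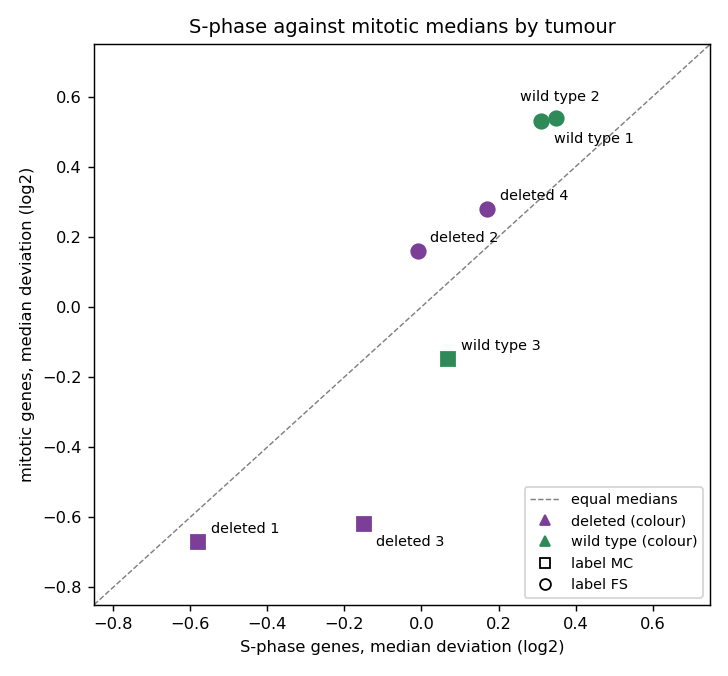
Each point is a tumour, placed by the median deviation of its S-phase genes (x, log2) and of its mitotic genes (y, log2), with colour for DLG2 status, squares for label MC and circles for label FS. Deleted tumours 1 and 3 and wild-type tumour 3 lie below the line of equal medians, at differences of 0.09, 0.47 and 0.22, and the other 4 tumours lie above it.

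Tumours were also compared by sex label, a comparison that was made after the values were seen. With DLG2 status in the same limma fit, 14 of 15 mitotic genes lay lower in the 3 tumours labelled MC than in the 4 labelled FS, with a median difference of -0.81. Of these genes, 11 of 15 had an unadjusted p below 0.05 in that direction and 0 in the other, against 3.51% and 3.3% of all probes. The mitotic genes largely rose and fell together over the tumours. Of the 15, 0 lay above their own mean in deleted tumours 1 and 3, both MC, and 14 in wild-type tumour 2, FS. The 11 genes are thus not 11 independent results, and the share of all probes does not allow for this. None of the 34 genes passed the threshold, which 1 of 32309 probes did (0.0031%), and the smallest adjusted p among the genes was 0.354. The differences were -1.28 (SE 0.14) for KIF11, -1.15 (SE 0.17) for AURKA, -1.11 (SE 0.24) for CCNB2 and -1.08 (SE 0.13) for KIF23, where the minus sign marks lower values with MC. In S-phase genes the median was -0.33, with 3 of 15 at that p, namely MCM2, MCM7 and PCNA. Whether the lists differed from each other in this respect was not tested.

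On the shared slide of deleted tumours 2 and 3 and wild-type tumour 2, the S-phase median difference was -0.37 and the mitotic one -0.78. Single genes on that slide differed by -1.32 for PCNA, -0.92 for MCM5, -0.56 for MCM6 and -0.73 for ORC1, with 1 wild-type array behind each value. With the extraction session, the split by image processing time described above, as a term, the medians were -0.53 and -0.71. With wild-type tumours 1 and 2 counted as 1 tumour they were -0.33 and -0.38.

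Cell cycle genes outside the list were described next, from a list of 120 symbols, of which 106 had a kept probe. Of these, 81 lay lower and 25 higher in the deleted tumours, with a median of -0.15, and 0 passed the threshold. At an unadjusted p below 0.05, 11 of 106 lay lower and 1 higher, against 4.17% and 3.12% of all probes. The groups were separate in 8 of 106, all lower (7.55%), against 4.22% of all probes. The median was -0.12 in 36 further replication genes, of which 24 lay lower, and -0.25 in 38 further mitosis genes, of which 33 lay lower. It was -0.08 in 25 G1 regulators and inhibitors and -0.10 in 7 checkpoint kinases and phosphatases.

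The smallest p of this list belonged to RFC5, a clamp loader subunit, with 11.17, 11.66, 11.68 and 11.87 in the deleted tumours and 12.70, 12.86 and 12.07 in the wild-type tumours. The groups were separate, with a difference of -0.95 (SE 0.24, limma adjusted p = 0.503). CDKN2D, a CDK inhibitor, differed by -0.61 and TK1, thymidine kinase, by -0.81. PTTG1, securin, differed by -0.66, ASPM, a spindle pole protein, by -0.71 and DBF4, the activator of the CDC7 kinase, by -0.38. These 6 genes were named for their small p, so that their groups were also separate follows largely from the choice, and their limma adjusted p lay between 0.503 and 0.644.

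Further G1 control genes overlapped between the groups. CCND1, cyclin D1, had 9.64, 9.60, 10.43 and 9.66 in the deleted tumours and 10.01, 9.72 and 10.08 in the wild-type tumours. The groups overlapped, with deleted tumour 3 highest, and the difference was -0.11 (SE 0.23). CDKN1A, the p21 inhibitor, had 10.48, 10.76, 12.20 and 11.06 against 11.53, 11.61 and 11.32, again highest in deleted tumour 3, with a difference of -0.36 (SE 0.40). CDKN1B, the p27 inhibitor, differed by -0.17 (SE 0.24) and RB1, which restrains E2F factors, by -0.09 (SE 0.21). CCND3, cyclin D3, was the only gene of this list in the higher direction at an unadjusted p below 0.05, with 0.83 (SE 0.32, limma adjusted p = 0.659). CCND2, cyclin D2, had the difference furthest from 0 of the 106 genes, at -1.57 (SE 0.66, limma adjusted p = 0.684). It read 7.48, 7.46, 8.37 and 6.92 in the deleted tumours and 10.15, 9.69 and 7.54 in the wild-type tumours, so wild-type tumours 1 and 2 were high and wild-type tumour 3 lay among the deleted tumours.

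Markers of other cells were set beside these results. T and NK cell markers, of which 5 of 9 had a kept probe, had medians of -0.06 to 0.43 in the deleted and -0.38 to -0.24 in the wild-type tumours, with a log2 summed intensity of 9.89 to 10.32 and 9.43 to 9.49, so the groups were separate. By gene, CD3E, CD8A, GZMA and LCK were separate and higher in the deleted tumours, while PRF1 overlapped with a difference of 0.03. Of all probes, 8.14% were separate in either direction. Osteoclast markers, with 6 of 9 kept, had medians of -1.19 to 0.53 and -0.51 to 2.28, with summed intensities of 13.39 to 16.09 and 14.98 to 17.80. Osteoblast markers, with 6 of 11 kept, had medians of -1.18 to 0.38 and -0.04 to 0.72, with summed intensities of 17.24 to 18.49 and 18.10 to 18.37. Deleted tumour 4 stood apart in adipocyte markers, with a median of 3.12 against -0.61 to -0.28 in the other 6. By gene, ADIPOQ, CIDEC, LPL and PLIN1 were highest in that tumour, while LEP was lowest in it, at 7.96 against 8.00 to 8.26. Of the defining markers, MS4A1 of B cells was not well above background in any wild-type tumour, and PAX5, TEK, TNFRSF11A and MYH2 had a probe that was not kept. In the cartilage, endothelial, macrophage, B cell and muscle lists the medians of the groups overlapped, and of 4 erythroid markers 0 had a kept probe. The part of other cells in the cell cycle differences was not tested.

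**Figure D5:**
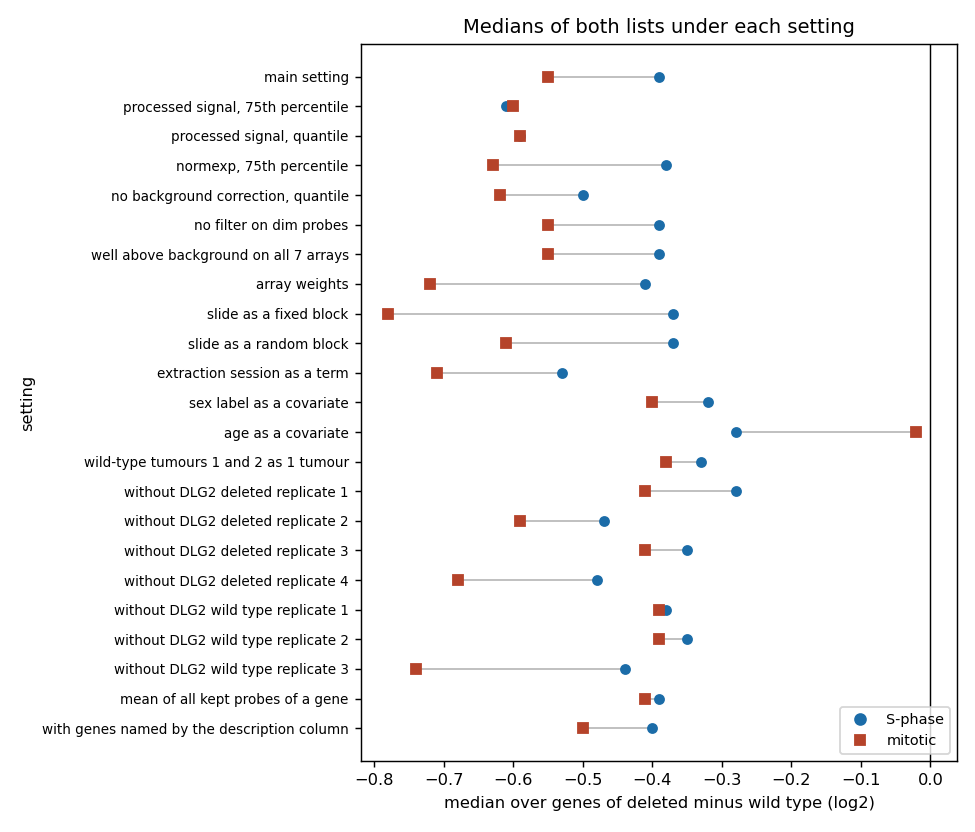
Circles (S-phase) and squares (mitotic) give the median over genes of the deleted minus wild-type difference in log2 intensity under the main setting and each alternative (rows). S-phase medians lie between -0.61 and -0.28, and mitotic medians between -0.78 and -0.38 except for -0.02 with age as a covariate. With normexp and the 75th percentile, the median of all probes was itself at 0.32.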

How the data were processed

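The authors hybridised RNA of 7 canine osteosarcomas to 1-channel (Cy3) Agilent Canine V2 arrays, 1 for each tumour, and groups were taken from the labels. The deposited files hold spot and background intensity on a linear scale from Agilent Feature Extraction 10.7.3.1, per the file headers, with gene names, descriptions, probe sequences and canFam2 coordinates. The authors' methods name a robust multi-array normalization and correction for a batch that is not given in the sources used here. Their normalized values were not used here.

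The mean intensity was corrected by normexp with the median background (offset 50), quantile-normalized and put on the log2 scale with limma 3.58.1 in R 4.3.3. Of 45220 spots per array, 43803 were no controls, 144 values marked as outliers were dropped, and spots of a probe were averaged to 43603 probes. A probe was kept if well above background on at least 3 arrays, which left 32309. A gene's value is that of its brightest kept probe by the mean of the 7 arrays. The number of arrays limits the precision.

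Groups were compared with limma (lmFit and eBayes, two-sided, no covariate), with Benjamini-Hochberg adjustment over all kept probes, and single genes also with an exact permutation test (scipy 1.17.1). Calls needed an unadjusted p below 0.05 and an adjusted p below 0.1, the rule of the study's methods. No p was given for a median over genes. Members, other gene lists and marker lists were chosen with earlier results of these data known.

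Values in every tumour are given for MKI67, PCNA, TOP2A, MCM2, CDK1, CCNE1, E2F1, and the 4 smallest p and 2 largest differences of the S-phase and the mitotic list. CCNB1 was named by the same rule but had no probe above background. Of the other cell cycle genes the named ones are CCND1, CDKN1A, CDKN1B, RB1 and the 6 with the smallest p. Other genes given with values in every tumour (ORC1, RRM1, KIF20A, BUB1, CCND2) and CCND3 were chosen after their values were seen. Alternatives were other background corrections, scalings, filters, models, covariates, blocks, tests and probe rules, and leaving out each tumour. The computations were tested on simulated data.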

Additional observations from a re-analysis of the deposited data

Results flagged for a closer look

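In 2 genes of the deleted group a single tumour stood far from the other 3. For RRM2 in the deleted tumours, deleted tumour 4 read 7.58 against 7.19, 7.13 and 7.20, and the gap took 0.846 of the range of the group. For KIF20A in the deleted tumours, deleted tumour 2 read 10.06 against 8.46, 8.50 and 8.70, and the gap took 0.848 of the range. Both are past Dixon's limit for 4 samples. Of 37 groups examined, 1.85 would be expected past that limit by chance alone, so 2 is near the chance number. A different response to DLG2 status between the sex labels was fitted as an interaction. Wild-type tumour 3 was the only wild-type tumour labelled MC, so the interaction of every gene rests on that tumour. The fit cannot decide whether the response differed, and no p-value or count is given for it.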

How the results depend on the processing

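The number of the 34 genes called was 0 under all 24 alternatives. Probes called over the whole array numbered 0 in the main setting, 10 with the processed signal and the 75th percentile, 4 with the processed signal and quantile scaling, 23 with normexp and the 75th percentile, 1 without background correction, 4 with trend and robust options, 3 with array weights, 1 with slide as a random block, 3 with 1 probe per gene, and 0 to 46 when single tumours were left out. The 46 came without wild-type tumour 3, and 42 of them were lower. The methods' t-test called 0 probes, with 2246 at its unadjusted p below 0.05. The S-phase median stayed between -0.61 and -0.28 and the mitotic median between -0.78 and -0.02, with -0.02 reached with age as a covariate. Leaving out single tumours gave -0.48 to -0.28 for S-phase and -0.74 to -0.39 for mitotic genes. The S-phase minus mitotic difference ran from -0.26, with age, to 0.41, with slide as a fixed block, and from 0.00 to 0.30 without single tumours. Genes that lay lower numbered 24 of 34 with normexp and the 75th percentile, 25 with age and 28 to 32 otherwise. That scaling put the median of all probes at 0.32, and relative to it 29 of 34 lay lower.

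For some genes the sign turned, both near 0 and, with age or normexp and the 75th percentile, further from it. With normexp and the 75th percentile the differences were 0.34 for CCNE2, 0.29 for E2F1, 0.17 for CDC6, 0.40 for GINS2, 0.15 for MCM3, 0.01 for MCM4 and 0.48 for RRM2. With the processed signal and quantile scaling GINS2 was at 0.01. Array weights gave 0.00 for MCM4 and 0.02 for CENPA, slide as a fixed block 0.04 for MCM4 and 0.02 for CENPA, and the extraction session -0.01 for RRM1. The sex label gave 0.00 for GINS2 and 0.01 for RRM2. Age gave 0.11 for GINS2, 0.28 for AURKA, 0.12 for BUB1B, 0.14 for CDC20, 0.01 for KIF11 and 0.17 for KIF23. Wild-type tumours 1 and 2 as 1 tumour gave 0.06 for GINS2 and 0.02 for RRM2. Leaving out single tumours gave ranges of -0.32 to 0.10 for CCNE2, -0.16 to 0.11 for MCM4, -0.12 to 0.04 for RRM2, -0.03 to 0.45 for CCNE1, -0.16 to 0.14 for CENPA and -0.30 to 0.10 for GINS2. The cause was not tested. Genes named by their description, added after seeing the data, gave medians of -0.40 and -0.50.

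No paired analysis was possible because the sample numbers of the labels are not shared between the groups. The planned description of promoter motifs was not run, since no promoter sequences were used here. With 4 against 3 tumours, differences of this size did not pass an adjustment over 32309 probes.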

Other observations

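By sex label, the mitotic median deviation was -0.67, -0.62 and -0.15 in the MC tumours and 0.16, 0.28, 0.53 and 0.54 in the FS tumours, without overlap. The S-phase median minus the mitotic median was 0.09, 0.47 and 0.22 with MC and -0.17, -0.11, -0.23 and -0.18 with FS, without overlap. This score contains the mitotic median with its sign reversed, so its lack of overlap is no separate result. The split by sex label was made after the values were seen, and the share of all genes without overlap by that label was not computed. The 3 MC dogs were 8, 6 and 8 years old and the 4 FS dogs 9, 7, 12 and 10, so sex label and age can be told apart only in part. The FS tumours include wild-type tumours 1 and 2, the pair that was much alike. The further mitosis genes outside the list had medians of -0.41, -0.40 and -0.02 with MC and 0.10, 0.19, 0.29 and 0.25 with FS.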
